A study of Mus musculus with 8 samples.

Results

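The genes described here encode nuclear subunits of mitochondrial complex I, chosen by their symbols, which begin with Nduf followed by a, b, c, s or v and a number. The RefSeq gene table held 37 such genes, and 36 of them had a probe on the array, with 42 probes in all out of 56605 probes other than controls. No probe matched Ndufb1 by its accession. All 36 genes had at least 1 retained probe, meaning a probe that in 1 genotype or both exceeded the background on each array with a measurement, and 41 of the 42 member probes were retained out of 37085. The probe left out was a second probe of Ndufa7. The 36 genes stand among 16093 named genes with a retained probe.

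Whole retinas of aged mice were compared on 8 one-color Agilent arrays, 4 labelled as homozygous Mrp4 knockouts (Mrp4-null) and 4 wild-type (WT). The labels give an age of 46 to 55 weeks for both genotypes, and the study's methods describe a C57BL/6J background. The methods name retinal tissue from 3 mice and 4 samples of each genotype, so whether a sample held 1 animal or a pool is not clear, and p-values measure the spread between these samples. The 8 arrays shared 1 slide, where either genotype filled a separate row, and slide row and genotype cannot be told apart.

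Complex I, NADH:ubiquinone oxidoreductase, is the entry point of the respiratory chain: it takes electrons from NADH, passes them along flavin and iron-sulfur centres to ubiquinone, and pumps protons across the inner mitochondrial membrane. Its core subunits carry out catalysis, and a larger number of supernumerary subunits surround them and are needed for assembly and stability. The core subunits embedded in the membrane are encoded by mitochondrial DNA, whereas all the genes described here lie in the nucleus. Photoreceptors pack mitochondria into their inner segments and have a high demand for ATP, and loss of complex I function is known to injure retinal ganglion cells.

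Nuclear genes of the respiratory chain are known to share promoter motifs, among them the palindrome bound by nuclear respiratory factor 1 (NRF-1). RefSeq promoter windows (GRCm38.p6) reaching from 250 bases before to 50 bases after the gene start were at hand for 33 of the 37 genes. The NRF-1 letters GCGCANGCG, searched on both strands, were found in 8 of these 33 genes (24.2%), compared with 1901 of 27025 genes with such a window (7.03%). The 8 genes were Ndufa5, Ndufa6, Ndufa8, Ndufa11, Ndufb4, Ndufb10, Ndufs5 and Ndufs6. The stretches upstream of the start in 5 of them follow, 5′ to 3′ on the strand of the gene. The likeness of the motif was set by the search, and that of the bases around it was not measured. Capitals mark the motif, on either strand. They lie at chr2:36049339-36049412 (minus strand, Ndufa8), chr17:56717657-56717756 (plus strand, Ndufa11), chr16:37654369-37654604 (minus strand, Ndufb4), chr4:123718231-123718329 (minus strand, Ndufs5) and chr13:73328483-73328542 (minus strand, Ndufs6).
Ndufa8: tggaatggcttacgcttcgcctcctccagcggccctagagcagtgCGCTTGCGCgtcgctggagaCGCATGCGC
Ndufa11: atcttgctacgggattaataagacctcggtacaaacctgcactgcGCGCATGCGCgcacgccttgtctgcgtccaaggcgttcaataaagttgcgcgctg
Ndufb4: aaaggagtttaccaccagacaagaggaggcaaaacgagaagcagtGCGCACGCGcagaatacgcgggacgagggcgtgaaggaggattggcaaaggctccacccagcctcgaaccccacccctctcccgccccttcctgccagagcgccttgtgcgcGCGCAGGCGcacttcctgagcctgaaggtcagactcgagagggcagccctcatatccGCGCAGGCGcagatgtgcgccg
Ndufs5: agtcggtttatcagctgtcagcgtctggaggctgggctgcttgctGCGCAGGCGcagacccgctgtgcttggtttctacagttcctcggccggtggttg
Ndufs6: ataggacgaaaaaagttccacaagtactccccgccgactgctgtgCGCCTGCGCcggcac

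Ndufb4, a subunit of the membrane arm, held 3 matches, Ndufa8 and Ndufa11 held 2 each, which overlap in Ndufa11, and Ndufa5 held 1, which lay in both of its overlapping windows. The letters AAGATGGCG, a form of the YY1 motif, were found in 5 of the 33 genes (15.2%) and in 1.64% of all genes. These were Ndufa9, Ndufc1, Ndufs4, Ndufs6 and Ndufs7, in each case past the gene start. The letters CCGGAAGT, an ETS motif, were found in Ndufs3 only (3.03% against 4.31% of all genes). The CCAAT-box form CCAATCA was found in Ndufa6, Ndufb11 and Ndufs8 (9.09% against 9%), and TCAAGGTCA, the motif of the estrogen-related receptors, in none (0.466% of all genes). All 5 motifs were searched on both strands, and none of them contains another. At least 1 motif was found in 15 genes and at least 2 in 2 genes. These matches describe the letters in the windows, and the arrays do not measure binding.

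The array labels were first checked on the targeted gene. Abcc4, which encodes MRP4, was at a normalized log2 signal of 10.84, 10.71, 10.65 and 10.80 under the Mrp4-null label and at 6.62, 7.13, 6.54 and 7.02 under the WT label. The targeted gene was thus higher under the knockout label, which goes against that label, by 3.92 on the log2 scale (SE 0.14, limma, adjusted p = 1.36e-05). Directions given for the arrays labelled Mrp4-null follow the deposited labels, and every one of them would turn if the labels were exchanged. The same Abcc4 probe heads the study's own list of upregulated probes in the knockout retina. Where the probe lies relative to the deleted part of the gene is not known here. Markers of rods, cones, bipolar cells, amacrine and horizontal cells, ganglion cells and Müller glia were well above background on all 8 arrays, and no member spot was saturated.

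No complex I subunit gene was called changed between the genotypes. A call required a 1.5-fold or larger difference with an adjusted p below 0.05, from limma over all 37085 retained probes, and 0.545% of these probes were called (202, of which 0.256% of the tested were higher and 0.289% lower). By the probe that represents each gene, 0.572% of the 16093 named genes were called and 0 of the 36 members. No member reached an unadjusted p under 0.05 either, compared with 6.6% of the named genes and 6.46% of the probes, and the local pooled error test named in the study's methods, at the same fold and with Benjamini-Hochberg adjusted p, called 0 members and 0.626% of the probes. The methods do not say whether p was adjusted there, and no member reached the fold. The smallest unadjusted p among the members was 0.172, for Ndufv3. All the adjusted p-values of the members were 1.

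The differences were small, and the arrays measured them closely. Differences on the log2 scale, labelled Mrp4-null minus WT, ran from -0.14 for Ndufs4 to 0.05 for Ndufs7, with a median size of 0.0485. The 95% interval of the difference lay within 1.5-fold in either direction (0.585 on the log2 scale) for 36 of 36 members, compared with 81.9% of the named genes and 3867 of the 4028 named genes with a representing probe at least as bright as the dimmest of the members. The lowest bound of any interval was -0.56, for Ndufa4. The SD within genotypes had a median of 0.0927 over the members and of 0.163 over all named genes. Among those 4028 bright genes 124 had an unadjusted p under 0.05, the median SD was 0.113 and the median size of the difference 0.0511. Differences smaller than the distance from an estimate to the end of its interval cannot be told from 0 with these arrays.

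**Figure D1:**
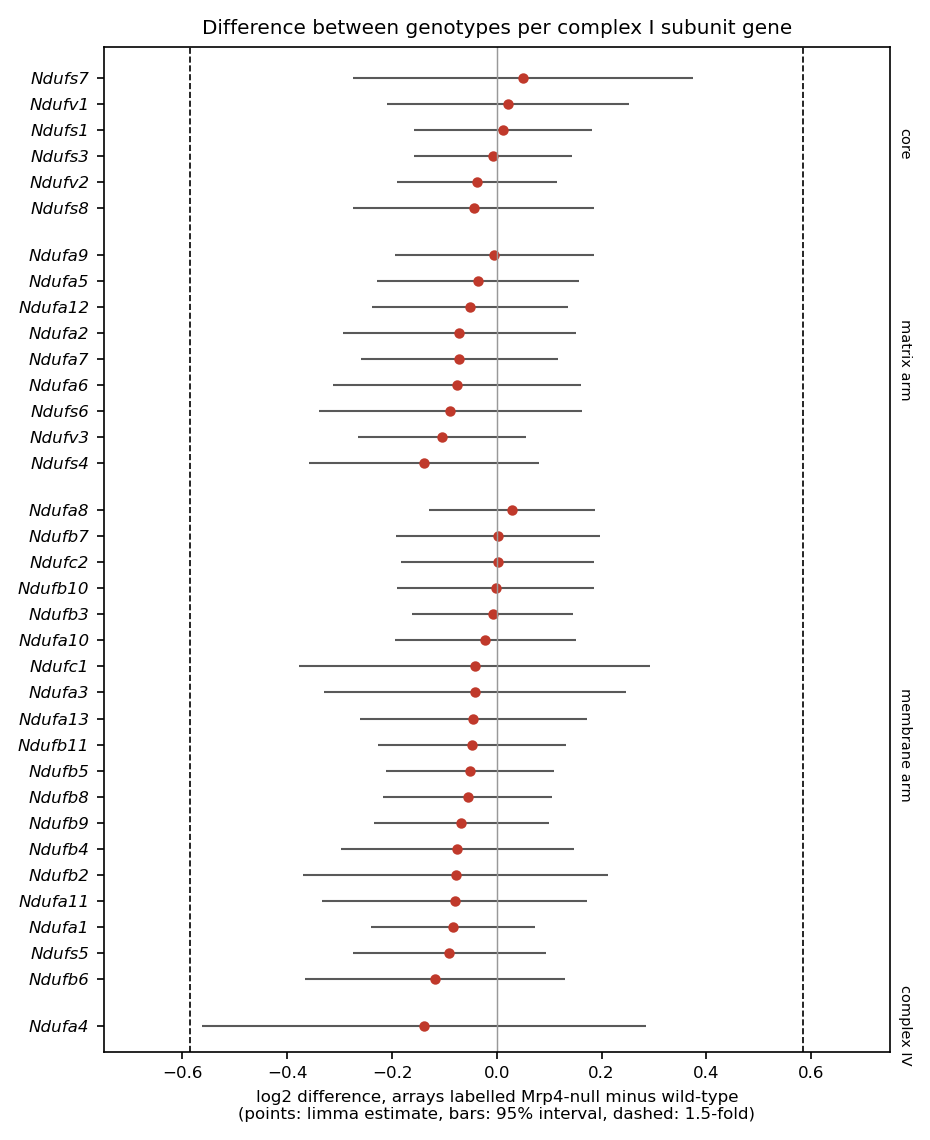
Log2 difference between arrays labelled Mrp4-null and WT arrays (x axis) for each of 35 complex I genes (y axis), grouped by the place of the subunit. Points are limma estimates, bars are 95% intervals and dashed lines mark 1.5-fold; every bar crosses 0 and none reaches a dashed line, and the widest is that of Ndufa4, from -0.56 to 0.29.

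**Figure D2:**
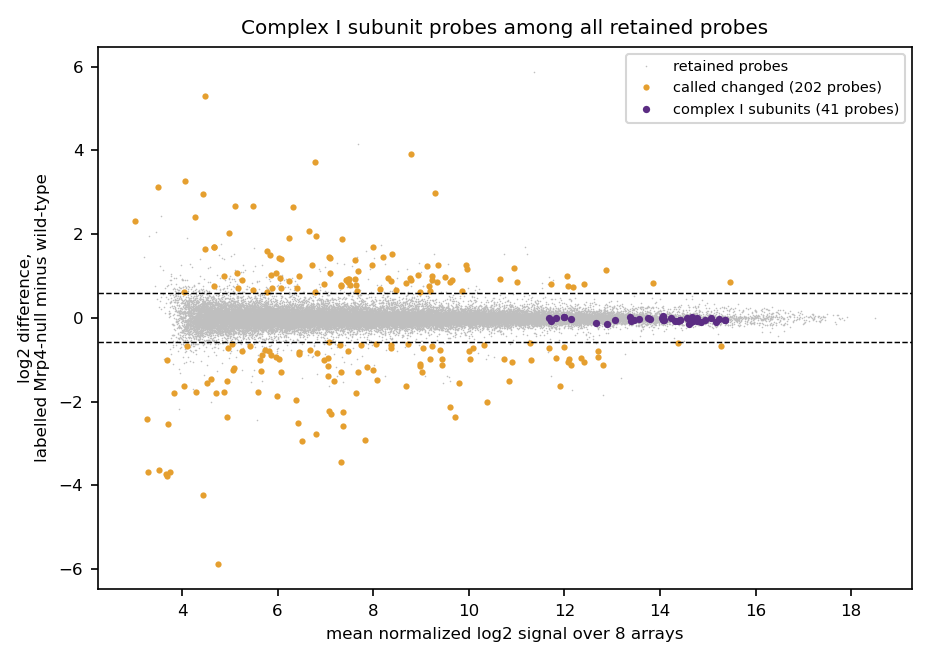
Log2 difference (y axis) against mean normalized log2 signal over 8 arrays (x axis) for the 37085 retained probes. The 41 complex I probes (purple) lie close to 0 between the dashed 1.5-fold lines, while the 202 probes called changed (orange) lie outside these lines.

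The 7 nuclear core subunits form the matrix arm, through which electrons pass. The log2 differences of the core genes ran from -0.04 to 0.05, 3 higher and 4 lower. All 7 were lower after the shift to the 75th percentile and none without normalization between arrays, and the smallest unadjusted p was 0.589. Ndufv1, which encodes the subunit that binds NADH and flavin, was at 14.68, 14.72, 14.81 and 14.53 under the Mrp4-null label and at 14.88, 14.61, 14.65 and 14.52 under the WT label. The highest and the lowest array were both WT, and the difference was 0.02 (SE 0.10). A second probe of Ndufv1 gave a difference of 0.0194. Ndufv2 and Ndufs1, whose products carry iron-sulfur clusters of the same arm, differed by -0.04 (SE 0.067) and 0.01 (SE 0.0745).

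Ndufs7 encodes the subunit that holds the last iron-sulfur cluster before ubiquinone. Its log2 signal was 13.96, 14.36, 14.16 and 13.83 under the Mrp4-null label and 14.18, 13.83, 14.22 and 13.90 under the WT label, a difference of 0.05 (SE 0.14). Each genotype thus had arrays near 13.8 and arrays above 14.1, and the 4 highest arrays were Mrp4-null 2 and 3 and WT 1 and 3. Ndufs3, a core subunit without an iron-sulfur cluster, and Ndufs8, which carries such clusters, differed by -0.0071 (SE 0.0661) and -0.04 (SE 0.10).

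The 9 supernumerary subunits of the matrix arm all had negative differences, from -0.14 for Ndufs4 to -0.005 for Ndufa9, with a median of -0.07, and none passed the test. All 9 were lower after a shift to the 75th percentile or cyclic loess as well, and 7 of 9 without normalization between arrays. Ndufs4 encodes an assembly and stability subunit whose loss in mice is a model of Leigh syndrome. It was at 12.82, 12.92, 12.66 and 12.87 under the Mrp4-null label and at 12.76, 12.98, 13.03 and 13.04 under the WT label. WT 1 lay below 3 of the arrays labelled Mrp4-null, so the genotypes overlapped, and the difference of -0.14 (SE 0.096) had an interval from -0.36 to 0.08.

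Ndufv3, a small subunit attached near the NADH site, was the member with the smallest p and the single one with genotypes that did not overlap. Its log2 signal was 15.13, 15.16, 15.13 and 15.08 under the Mrp4-null label and 15.23, 15.19, 15.32 and 15.18 under the WT label. The nearest arrays of the genotypes, Mrp4-null 2 and WT 4, were at 15.157 and 15.177. The difference was -0.10 (SE 0.07, interval -0.27 to 0.06, unadjusted p = 0.172 and adjusted p = 1, limma). The genotypes did not overlap in 5.44% of the named genes (4.79% of the probes) and in 1 of the 36 members.

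Of the supernumerary subunits of the membrane arm, 19 of 20 were measured, and 3 were higher and 16 lower, from -0.12 for Ndufb6 to 0.03 for Ndufa8, with a median of -0.05. After the 75th percentile shift 19 were lower, and without normalization 13. Ndufa8, an intermembrane space subunit held by disulfide bonds and one of the genes with the NRF-1 letters, was at 12.06, 11.95, 11.96 and 12.02 under the Mrp4-null label. On the WT arrays it was at 11.93, 12.00, 11.93 and 12.01, and the difference was 0.03 (SE 0.07), which turned negative after the 75th percentile shift and after normexp background correction. The arrays of the genotypes interleaved.

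Ndufb6 encodes a single-pass subunit of the distal membrane arm. It was at 12.60, 12.84, 12.55 and 12.45 under the Mrp4-null label and at 12.60, 12.63, 12.85 and 12.83 under the WT label, a difference of -0.12 (SE 0.11). Mrp4-null 2 was as high as the upper WT arrays, and the other arrays of that genotype lay at or under the lowest WT array. Ndufb6 and Ndufs5 lie on chromosome 4, where 2.17% of 1015 named genes were called, and Ndufa13 and Ndufb7 lie on chromosome 8, where 3.46% of 837 were. These 4 members differed by between -0.12 and 0.003. The X-linked members Ndufa1 and Ndufb11 differed by -0.08 and -0.05, and 0 of 567 named genes of that chromosome were called. Xist, the X-linked RNA of the inactive X chromosome, exceeded background on WT 1, WT 2 and each of the 4 Mrp4-null arrays, but not on WT 3 and WT 4. The labels give no sex, and its part in the members' values was not tested.

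Ndufa4 was first assigned to complex I and is now known as a subunit of complex IV, cytochrome c oxidase. It varied most among the members: its log2 signal was 14.79, 14.50, 14.14 and 14.74 under the Mrp4-null label and 14.30, 14.85, 14.61 and 14.96 under the WT label. Each genotype had 1 array at or under 14.30, and the ranges overlapped over most of their length. The difference was -0.14 (SE 0.19, interval -0.56 to 0.29), and it was -0.266 without WT 1 and -0.0024 without Mrp4-null 3. Its SD within genotypes was 0.296, compared with a median of 0.0927 over the members.

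**Figure D3:**
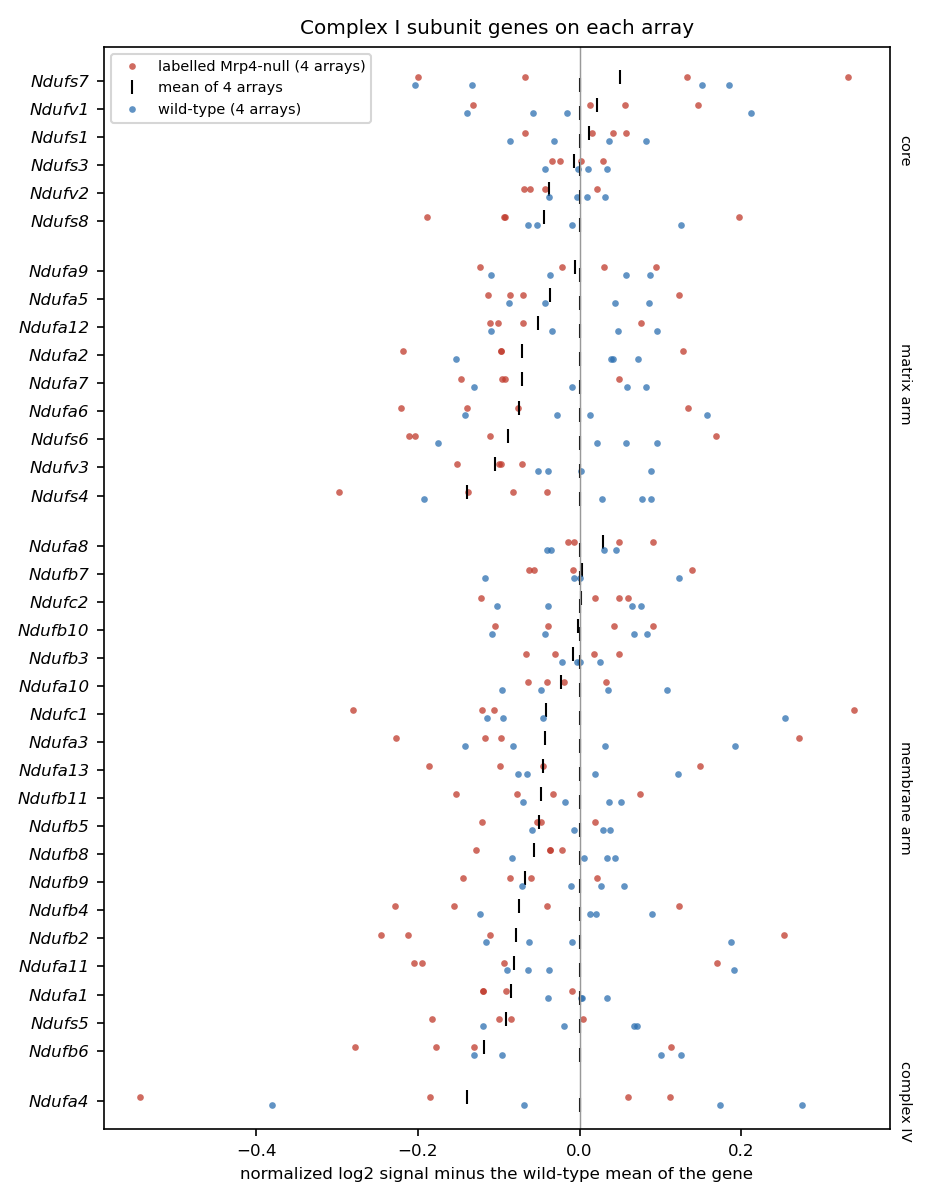
Normalized log2 signal of each of 35 complex I genes on each array minus the mean of its 4 WT arrays (x axis, log2), with 1 row per gene grouped by the place of the subunit. Red points are arrays labelled Mrp4-null, blue points are WT arrays and ticks are means of 4 arrays; the colors overlap in all genes but Ndufv3, and Ndufa4 has the widest spread.

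The differences of the 24 members other than the core subunits, Ndufv3 and the largest rises and falls ran from -0.09 to 0.003, with 2 higher and 22 lower. Of the 5 genes with 2 retained probes, Ndufa5 had probes of unlike sign, at -0.04 and 0.0043, and the probes of Ndufa3, Ndufa10, Ndufb5 and Ndufv1 agreed to within 0.0071. The gene table names 6 near copies of members, such as Ndufb4b and Ndufa11b, and whether the probes distinguish them was not tested.

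Most of the small differences had the same sign. Of the 36 members, 30 were lower and 6 higher in the mean of the Mrp4-null label, with a median of -0.05, whereas 53.7% of all named genes were lower, with a median of -0.01. The count of lower members moved with the scaling: it was 30 after quantile normalization and after cyclic loess, 36 after the shift to the 75th percentile and 21 without normalization. The share of all retained probes that were lower was 53.2% after quantile normalization and after the shift, 52.5% after cyclic loess and 24.1% without normalization, where the median over all probes was 0.08. The median of the members was -0.10 after the percentile shift and -0.009 without normalization.

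Most members lay on the same side of their own means on a given array. The mean deviation of the 36 genes from their own means over 8 arrays was -0.03, 0.10, -0.09 and -0.08 on Mrp4-null 1 to 4 and -0.04, 0.01, 0.09 and 0.03 on WT 1 to 4, in log2 units. Of the 36 genes, 28 were above their own mean on Mrp4-null 2 and 31 on WT 3, compared with 6 on Mrp4-null 3 and 7 on Mrp4-null 4. The genotypes overlapped, and the highest value belonged to an array labelled Mrp4-null. Mrp4-null 3 was the lowest array for 15 of the members and Mrp4-null 4 for 12, while Mrp4-null 2 was the highest for 13.

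Mrp4-null 2 and WT 3, the arrays with the highest mean deviation of the members, were also the dimmest. The 75th percentile of the signal before normalization was 678 and 706 on these arrays and 781 to 1082 on the others. On both of them 26 members were above their own mean and 3 were below it (Ndufa8, Ndufb10 and Ndufs1), compared with 31.4% and 42.1% of all named genes. The share above was 5 of 7 in the core, 8 of 9 in the matrix arm and 13 of 19 in the membrane arm. The part of array brightness in this pattern was not tested. Without these arrays (3 against 3, quantile normalized), 32 of 36 members were lower, with differences from -0.15 to 0.03 and a median of -0.07. Of all probes in that fit, 51.9% were lower, with a median of -0.0061. Among the members 0 had an unadjusted p under 0.05 (limma), compared with 7.71% of all probes.

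**Figure D4:**
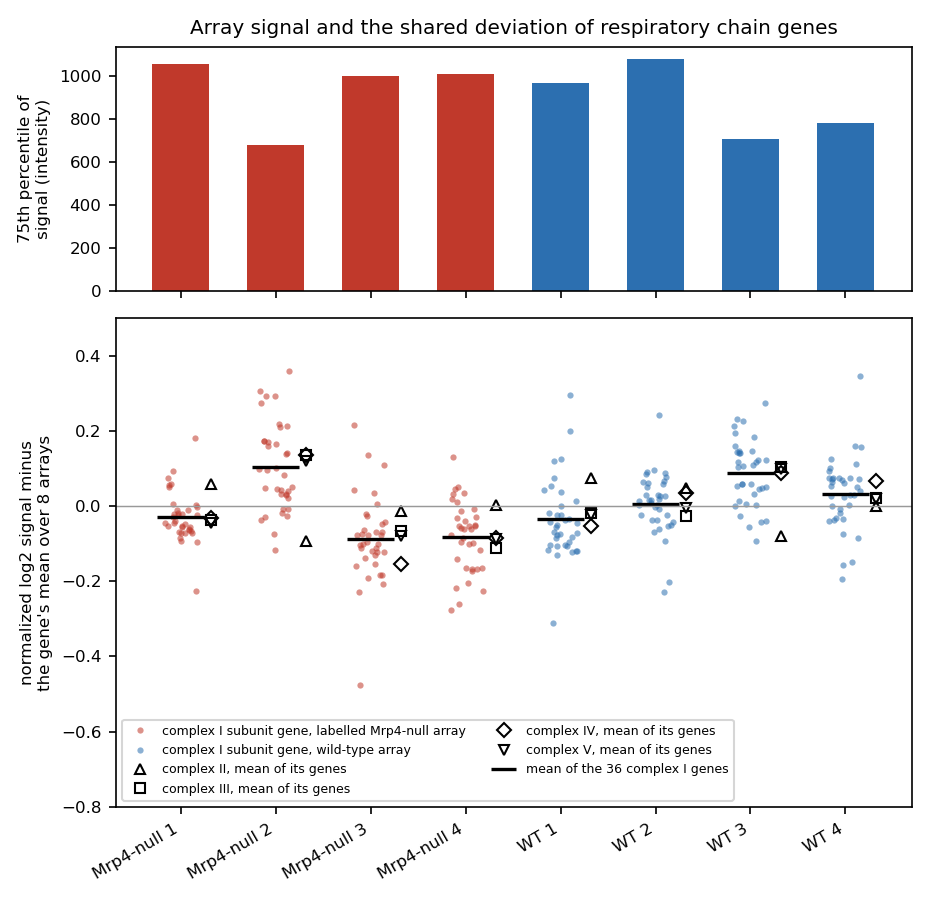
Upper panel: 75th percentile of the signal of all probes before normalization (intensity) on each of the 8 arrays. Lower panel: normalized log2 signal of each of the 36 complex I genes minus its mean over 8 arrays (points), their mean (black lines) and the means of the genes of complexes II to V (open symbols); Mrp4-null 2 and WT 3, with the lowest bars at 678 and 706, have the highest black lines, and complex II is below 0 there.

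The same array pattern was seen in complexes III, IV and V. The mean deviation on Mrp4-null 2 and WT 3 was 0.135 and 0.10 for complex III (cytochrome bc1), 0.135 and 0.09 for complex IV and 0.12 and 0.10 for complex V (ATP synthase). For the 4 genes of complex II, succinate dehydrogenase, which pumps no protons and is shared with the citric acid cycle, it was -0.09 and -0.08. Of the 44 measured genes of complexes II to V, 35 were above their own mean on Mrp4-null 2 and 33 on WT 3, but 7 on Mrp4-null 4.

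No gene of the wider pathway was called changed. Of 44 measured genes of complexes II to V out of 51 listed, 10 were higher and 34 lower, with a median of -0.05, 43 lower after the 75th percentile shift and 25 without normalization. In complex II, Sdhd was at -0.08 and Sdhb at 0.04, and in complex III, Uqcrh was at -0.13 and Uqcrc1 at 0.02. In complex V, Atp5if1, the inhibitor of the synthase's reverse reaction, was at -0.16 (SE 0.094, adjusted p = 0.942, limma) and Atp5pd at 0.03. Complex IV had the widest range, from -0.30 for Cox7a1 (SE 0.145, unadjusted p = 0.0686, adjusted p = 0.841, limma) to 0.27 for Cox6a2, both known as heart and muscle isoforms. Cox6a2 was dim, at mean log2 signals of 6.60 under the Mrp4-null label and 6.33 under the WT label. Cox5a, at -0.06, was the single gene of the 44 with genotypes that did not overlap, compared with 5.44% of the named genes.

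Genes outside the symbol rule but tied to complex I were likewise uncalled. Of 19 listed assembly factors 18 were measured, 6 higher and 12 lower, with a median of -0.04, which was 0.03 without normalization. They ran from -0.17 for Nubpl, which delivers iron-sulfur clusters to complex I, to 0.15 for Foxred1, a mitochondrial oxidoreductase needed for its assembly. Ndufab1, the mitochondrial acyl carrier protein bound to complex I, was at -0.14. Ndufa4l2, a paralog of Ndufa4 known to be induced by hypoxia, was at -0.33 (SE 0.11, unadjusted p = 0.0167, adjusted p = 0.52, limma). The probes of these genes were dimmer than those representing the members. Mean log2 signals under the Mrp4-null and WT labels were 6.90 and 7.04 for Ndufab1 and 6.57 and 6.90 for Ndufa4l2. The 7 mitochondrially encoded subunits matched no probe by accession and are not analysed here. Of the 13 genes of mitochondrial biogenesis, 12 were lower and 1 higher, with a median of -0.09, from -0.20 for Ppargc1b, a transcriptional coactivator of mitochondrial genes, to 0.03 for Polrmt, the mitochondrial RNA polymerase. Without normalization 8 of the 13 were lower.

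**Figure D5:**
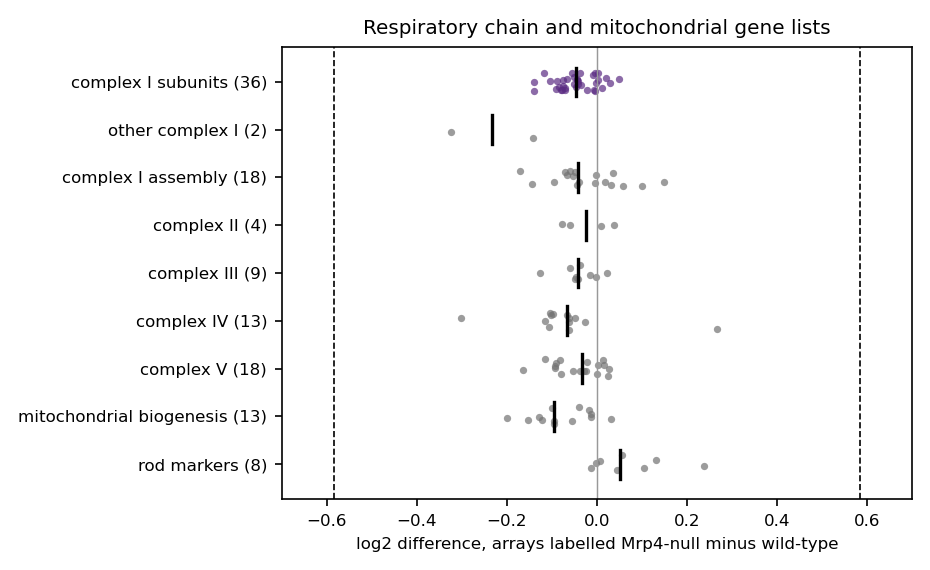
Log2 difference between arrays labelled Mrp4-null and WT arrays (x axis) for each gene with a retained probe (points) in the complex I set and in lists of related genes and rod markers, with the number of genes in parentheses. Black ticks are medians and dashed lines mark 1.5-fold; all points lie between the dashed lines, and the complex I genes lie between -0.14 and 0.05.

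In whole retina, fewer cells of a type and less RNA per cell cannot be told apart. The rod markers, from the cells that make up most of the mouse retina, had a median difference of 0.05, 6 higher and 2 lower, from -0.01 for Nrl to 0.24 for Sag. After the 75th percentile shift 4 of the 8 were lower. Their mean log2 signal per array was 16.33 to 16.46 under the Mrp4-null label and 16.28 to 16.40 under the WT label. Markers of the lens, a tissue that a retinal dissection can carry along, differed far more between arrays: 12 of 12 measured were lower, with a median of -1.42, from -2.44 for Mip to -0.94 for Crybb3. Limma called none of them, with 3 at an unadjusted p under 0.05, and the local pooled error test called 11. Their mean log2 signal was 6.33 to 9.05 under the Mrp4-null label and 7.77 to 10.32 under the WT label. Within each genotype the lens level was lowest on Mrp4-null 2 (6.33) and WT 3 (7.77), where the mean deviation of the members was highest (0.10 and 0.09). On Mrp4-null 1 and WT 2 the lens level was 6.73 and 10.32 and the deviation -0.03 and 0.01. The part of lens tissue in the members' values was not tested.

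Of the other retinal and neighbouring cell types, no marker was called by limma or by the local pooled error test. Bipolar markers had a median of 0.20, from -0.06 for Pcp2 to 0.24 for Grm6. Cone markers had a median of -0.03, or 0.008 without normalization, from -0.21 for Pde6h to 0.34 for Arr3. Horizontal and amacrine markers ran from -0.18 for Calb1 to 0.08 for Slc6a9 and ganglion cell markers from -0.26 for Sncg to 0.07 for Pou4f1. Müller glia markers ran from -0.39 for Aqp4 to 0.13 for Vim, with a median of -0.05, or 0.006 without normalization. Endothelial markers had a median of -0.22, from -0.37 for Kdr to 0.26 for Tie1. Myeloid markers ran from 0.14 for C1qb to 0.34 for Aif1, pigment epithelium markers from 0.08 for Ttr to 0.23 for Mlana and blood markers from 0.07 for Alas2 to 0.17 for Hba-a1. Skeletal muscle markers, 3 of 7 measured, ran from -0.02 to 0.02. These 3 were dim, at mean log2 signals of 5.2 to 7.8, and 3 of the 7 listed exceeded background on no array. Of the 46 measured markers of these cell types, 4 had genotypes that did not overlap, Arr3, Grm6, Aqp4 and Sncg, compared with 5.44% of the named genes. The same 4 with Kdr and Cldn5 had an unadjusted p under 0.05 (6 of 46, compared with 6.6% of the named genes), and their adjusted p was 0.192 or more (limma). The mean log2 signals of the Müller glia markers (12.73 and 12.88), of the endothelial markers (7.50 and 7.81) and of the skeletal muscle markers (6.08 and 6.12) were lower on Mrp4-null 2 and WT 3, the arrays with the highest complex I values, than on the other arrays. The rod markers (16.33 and 16.28) and the bipolar markers (14.06 and 13.90), like those of the lens, were lowest on these arrays within each genotype. Other marker sets did not share this. Cone markers peaked on Mrp4-null 2 (14.87) but were at 14.80 on WT 3. Horizontal and amacrine markers peaked on WT 3 (12.01), with 11.98 on Mrp4-null 2. Myeloid markers (8.55 and 8.53) were exceeded only by Mrp4-null 3 (9.49). Ganglion cell, pigment epithelium and blood markers were not lowest on both arrays. The part of cell composition in the members' values was not tested.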

How the data were processed

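The files that the authors deposited hold the scanner output, with a file for each array, in which the intensity of every spot had been background-subtracted and spatially detrended by Agilent Feature Extraction 11.0.1.1 (named in the submitters' processing notes), and a series-wide value file in which spots of a probe were averaged. These intensities were not normalized between arrays. The design of the array predates the build of the gene table (GRCm38.p6), from which names, chromosomes and promoter windows were taken. Accessions named 32994 of the 56605 probes (58.3%).

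Control spots and spots marked as outliers were left out, and log2 intensities were averaged per probe, without saturated spots to treat (0 on every array). A probe counted as well above background on an array when more than 0.5 of its spots did. It was retained when this held for each measured array in 1 genotype or both, given 3 or more measured arrays there and 2 or more in the other. Retained values were quantile normalized and fitted with lmFit and eBayes of limma 3.58.1 in R 4.3.3 (with statmod 1.5.0), with genotype as the only term and Benjamini-Hochberg adjustment over all retained probes. Limma took the place of the local pooled error test of the study's methods, which was run as an alternative. Its intensity bins each held a share of 0.01 of the ranked values, and its spline had 10 degrees of freedom. A gene was represented by its retained probe with the highest mean. The script was tested on simulated data.

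Array values are given for members called changed, with genotypes that did not overlap, or among the 3 largest rises or falls, and for Ndufa4. Core subunits are given with difference and standard error, and of each other list every called gene or else the largest rise and fall. The values of 1 core subunit are not reported here, though it is counted among the members. Members, lists, naming rule and tests were chosen with earlier results of these data known. The 75th percentile of the signal was 678 to 1082 and 66.0% to 69.9% of probes were well above background, and the number of arrays limits the precision. The alternatives were other scalings, normexp correction (offset 50, on the median signal because the files hold no mean signal), other filters, outlier spots kept, the deposited table, robust variances with an intensity trend, a block for the sample number, the local pooled error test, another threshold and other choices of probe, single arrays left out, and both dim arrays left out. The last of these, the median signal for normexp and the values without normalization were chosen after seeing the data.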

Additional observations from a re-analysis of the deposited data

Results flagged for a closer look

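Of 76 sets of 4 arrays checked (each genotype for each of the 36 genes, and the array measures), 3 held an array far from the others by Dixon's ratio, the gap to the nearest array over the whole range above the critical value for 4 values. Chance alone would give about 1 in 20. Ndufa2, a matrix arm subunit, was at 14.51 on WT 1 and at 14.70 to 14.73 on the other WT arrays (ratio 0.854). Ndufb8, a membrane arm subunit, lay at 14.84 on Mrp4-null 3, against 14.93 to 14.95 in the rest of that label (ratio 0.853). The 75th percentile of the signal before normalization was 678 on Mrp4-null 2, against 1000 to 1058 in the rest of that label (ratio 0.847).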

How the results depend on the processing

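No complex I gene or probe was called under any of the alternatives that were run, and no gene of the other respiratory chain lists was under the alternatives run for them, which left out the threshold without a fold limit and the call by any probe. The median difference of the members was between -0.0979 (75th percentile shift) and -0.0086 (no normalization between arrays, chosen after seeing the data) under alternatives with all arrays or without both dim arrays, and between -0.0948 and -0.0171 with each array left out in turn. Of 121 values of the 11 named members under alternatives other than single arrays left out, 8 changed sign: after the 75th percentile shift Ndufs7 was at -0.0026, Ndufa8 at -0.0089, Ndufv1 at -0.0231 and Ndufs1 at -0.0318, after normexp correction Ndufa8 was at -0.0117, and without normalization Ndufv2 was at 1e-04, Ndufs3 at 0.0326 and Ndufs8 at 0.0087. With each array left out in turn, 9 of 88 values changed sign, and the ranges were -0.0436 to 0.133 for Ndufs7, -0.0249 to 0.0921 for Ndufv1, -0.0161 to 0.0399 for Ndufs1, -0.0209 to 0.0041 for Ndufs3 and -0.124 to 0.0033 for Ndufs8. The ranges of the largest falls were -0.266 to -0.0024 for Ndufa4, -0.204 to -0.0873 for Ndufs4 and -0.195 to -0.0649 for Ndufb6, all of 1 sign. The smallest adjusted p of a named member under any alternative was 0.579. The count of all probes called, 202, was 71 with the sample number as a block, 98 without normalization, 124 without both dim arrays, and 117 to 183 with each array left out in turn, falling to 130, 126 and 117 without WT 2, WT 3 and WT 4. Fewer arrays enter the fits that leave arrays out, and the cause of the drop with the block and without normalization was not tested. The pairing of samples by number was not borne out, since same-numbered arrays deviated from their group means with correlations of -0.29, -0.685, 0.034 and 0.409, and the block left 0 members called. Matching probes by a gene name column was not run, as the files hold no such column. Differences smaller than the distance from an estimate to the end of its interval cannot be told from 0, and 4 arrays against 4 on 1 slide leave slide row and genotype joined.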
